A study of Danio rerio with 4 samples.

Results

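Brain RNA of wild-type zebrafish exposed to butylparaben at 1.0 mg/L was compared with that of fish given the vehicle, 0.1% dimethyl sulfoxide (DMSO). Butylparaben is an ester of 4-hydroxybenzoic acid used as a preservative in cosmetics, foods and drugs. The study's title concerns chronic exposure of adult fish, light sensitivity and memory. It comprised 4 brain libraries, 1 each for the vehicle and for butylparaben at 0.01, 0.1 and 1.0 mg/L. All 4 libraries are labelled wild type and brain, and DMSO is named for the control only. The sources used here do not say how many fish a library holds, what sex they were, how long exposure lasted or at what hour brains were taken.

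Levels are in CPM, the count of a gene per 1000000 counts of its library. Genes that averaged 1 CPM or more across the 4 libraries were compared, which left 16522 of the 32520 in the deposited table. Among genes with an informative symbol, the next inside this limit was hspb7, at a mean of 1.001 CPM and a log2 ratio of 0.00, and the next outside it was prkd4, at 0.998 CPM and 1.34. Counts were scaled with TMM factors, which set the bulk of genes to the same level in each library. The log2 ratio is that of CPM + 0.5 at 1.0 mg/L over control, which for low genes is smaller than the plain ratio. A fold is the ratio of CPM without that addition, given with its exact 95% interval. Calls of higher or lower required both a log2 ratio of 1 or more in size and an interval that excluded 1. The interval covers counting error only. With 1 library a side, no spread between fish was measured, no test was possible, and every difference below is between those libraries.

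The teleost brain holds light sensors of its own. Photoreceptor cells of the pineal gland use a rod-like opsin, transducin and phosphodiesterase cascade and release melatonin at night, and non-visual opsins occur in deeper regions. Preoptic and hypothalamic neurons make peptide hormones such as oxytocin and melanin-concentrating hormone. In the telencephalon, excitatory and inhibitory neurons form circuits involved in memory.

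The defining brain markers were present in both libraries. The authors' TPM, a level per transcript length, was 1938 in the control and 1994 at 1.0 mg/L for snap25a, which codes for a synaptic fusion protein. For mbpa, a myelin gene, it was 12199 and 14981, for gfap, an astroglial filament gene, 13.3 and 15.9, and for slc17a6b, a vesicular glutamate transporter gene, 28.6 and 28.2. Pituitary hormone genes were low, with 44 and 52 counts of pomca and at most 10 counts of prl, gh1 and cga in each of these libraries. Library totals of the control and of 1.0 mg/L were 11099317 and 9750590 counts, of which mitochondrial genes took 29.3% and 28.2%.

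The control library stood apart in ovary-type transcripts, although it is labelled brain. The 23 egg coat genes summed to 661 CPM in the control against 15.5, 18.0 and 13.7 CPM at the rising doses. For the zona pellucida gene zp2.1 the control held 1024 counts and the rising doses 3, 0 and 1, for the oocyte linker histone h1m 289 and 2, 0 and 1, and for the oocyte factor zar1 136 and 2, 1 and 0. Of 20 measured egg coat genes 18 were called lower, with a list median of -5.03, and 17 of these had passed the filter only through the control. Of 35 measured oocyte and germ cell genes 16 were called lower, 12 of them past the filter only through the control, and 1, the germ granule gene tdrd6, was called higher. Somatic gonad genes held 1 call among 12, the inhibin subunit gene inhbb, which was higher at 310 counts against 162.

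Relative to the control, 443 genes (2.68% of 16522) were called higher at 1.0 mg/L and 452 (2.74%) lower, and these shares are the background for the counts of each list. Of these, 69 higher genes had passed the filter only through the 1.0 mg/L library and 179 lower genes only through the control. Over all genes tested the median log2 ratio was 0.00, with 8280 above the control and 8241 below. Egg coat, oocyte and gonad lists held 34 of the lower calls, and genes outside these lists were not sorted by ovary-type origin. Calls lay mostly among low genes. At a mean of 1 to 2 CPM, 7.27% of genes were called higher and 7.17% lower, while at 100 CPM and above the shares were 0.397% (6 of 1512 genes) and 0.331% (5 genes). In the authors' deposited table, 1396 genes carry a mark for this comparison, 650 higher and 746 lower, and 850 of the 895 genes called here are among them. The authors' q-value was under 0.05 for 350 genes in that table.

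**Figure D1:**
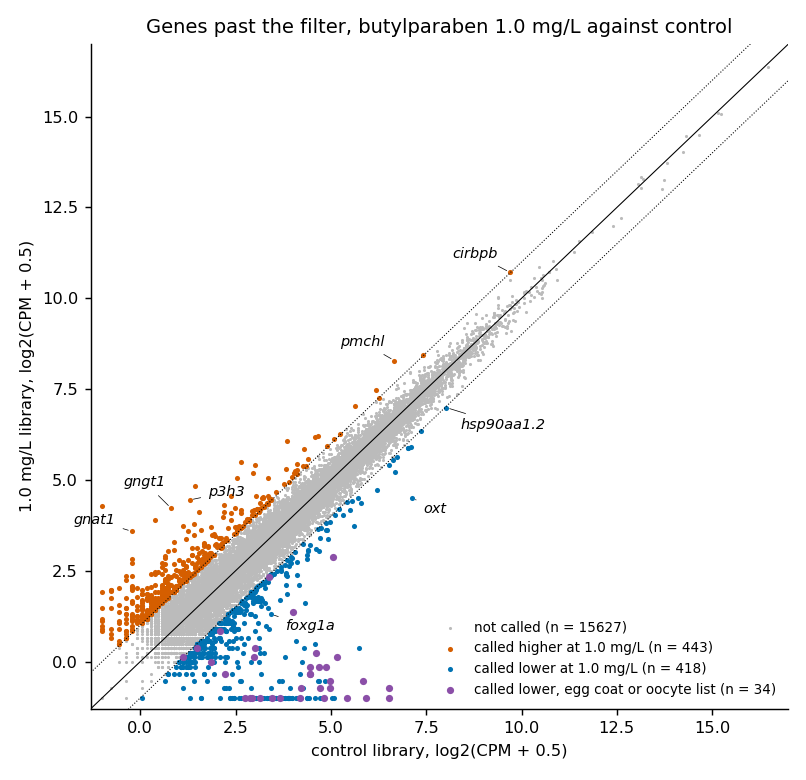
Level of each of the 16522 genes in the control library (x axis) and at 1.0 mg/L (y axis), both as log2(CPM + 0.5), with 1 point per gene; the solid line marks equal levels and the dotted lines a log2 ratio of 1 in either direction. The 443 genes called higher are orange and the 452 called lower are blue or, for the 34 in the egg coat, oocyte and gonad lists, purple; most calls lie at the low end, and purple points lie along the bottom edge.

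The 1.0 mg/L library was also set against each of the other doses. Against 0.01 mg/L, 306 genes (1.85%) were called higher and 255 (1.54%) lower. Against 0.1 mg/L, 315 (1.91%) were higher and 223 (1.35%) lower. All 4 libraries are given below as counts in each library, in the order control, 0.01, 0.1 and 1.0 mg/L, and each dose was compared with the same control.

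Of 34 genes of the rod-type light cascade 15 were measured, of which 5 were called higher (33.3%, beside 2.68% of all genes) and 1 lower. However, 4 of the 5 higher genes had passed the filter only through the 1.0 mg/L library. The summed level of the 34 genes was 539.7, 522, 472 and 527 CPM in the order control, 0.01, 0.1 and 1.0 mg/L, and so was not higher at 1.0 mg/L than in the control. In counts the sum was 6059 in the control and 5361 at 1.0 mg/L. Most of these came from the 9 measured genes that were not called, so the sum says little of the called genes. The gene gnat1 (ENSDARG00000044199, chromosome 6, 42918933 to 42930302, GRCz11), which codes for the rod transducin alpha subunit, had 4, 1, 3 and 117 counts, so the 1.0 mg/L library was 32.3-fold above the control (interval 12.3 to 120). The transducin gamma gene gngt1 (ENSDARG00000035798, chromosome 19, 40856534 to 40859468) had 14, 7, 2 and 185 counts, 14.6-fold above the control (8.48 to 27). Both were low in the other 3 libraries and high only at 1.0 mg/L. In the authors' TPM gnat1 was at 0.23 in the control and 7.84 at 1.0 mg/L, and gngt1 at 2.13 and 40.8.

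The recoverin gene rcvrnb, whose product senses calcium in photoreceptors, had 4, 2, 0 and 47 counts and was 13-fold higher (4.74 to 49.6). The phosphodiesterase subunit gene pde6b had 6, 5, 1 and 28 counts, and the cyclic nucleotide-gated channel gene cngb1b 15, 23, 14 and 33. The guanylate cyclase gene gucy2d went the other way, at 71, 8, 10 and 29 counts, so that the control was the highest of the 4. Of the 15 measured rod-type genes 12 were above the control, with a median of 0.50 beside 0.00 over all genes. At least 4 of the 15 had passed the filter only through the 1.0 mg/L library, which raises both values. The calls of pde6b, cngb1b and gucy2d were lost under 3, 3 and 4 of the 13 settings that tested them.

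The 19 rod-type genes below the filter summed to 62, 25, 28 and 133 counts. Among them were guca1a, a guanylate cyclase activator, with 1, 1, 2 and 31 counts, and saga, an arrestin, with 2, 2, 1 and 18. The rod opsin gene rho had 5, 1, 0 and 0 counts, so the visual opsin itself was near 0 in all 4 libraries.

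Cone-type genes gave 2 calls higher (18.2%, beside 2.68% of all genes) and none lower among 11 measured of 34, with all 11 above the control and a median of 0.60. Over the settings this median ranged from 0.17 to 0.69. The summed level of the 34 genes was 201, 201, 199 and 240 CPM in the order control, 0.01, 0.1 and 1.0 mg/L. The channel gene cnga3a had 4, 10, 10 and 27 counts (7.45-fold, 2.6 to 29.3) and passed the filter only through the 1.0 mg/L library. The cone arrestin gene arr3a had 19, 9, 5 and 41 counts (2.38-fold, 1.35 to 4.35). These calls were lost under 1 and 2 of the 13 settings that tested them. Below the filter, the opsin kinase gene grk7a had 0, 0, 1 and 14 counts and the transducin gene gngt2a 4, 0, 1 and 21. Cone opsins were near 0, opn1sw1 at 3, 0, 0 and 1 and opn1lw2 at 0, 0, 0 and 5 counts.

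Of 37 pineal genes 17 were measured, of which 5 were called higher (29.4%, beside 2.68% of all genes) and none lower, and 3 of the 5 had passed the filter only through the 1.0 mg/L library. The pineal opsin gene exorh (ENSDARG00000111860, chromosome 8, 54302700 to 54304381), known as the rhodopsin of the fish pineal, had 181, 115, 63 and 380 counts, 2.32-fold above the control (1.94 to 2.78), with both other doses below the control. The gene aanat2, the timing enzyme of melatonin synthesis in the fish pineal, had 12, 6, 15 and 60 counts (5.52-fold, 2.94 to 11.3). The final enzyme gene of melatonin synthesis, asmt, had 6, 3, 10 and 35 counts (6.44-fold, 2.68 to 18.7). In each of these genes the 1.0 mg/L library was the highest of the 4. For asmt this was set by the filter, which it had passed only through that library. Of the 17 measured pineal genes 12 were above the control and 5 below, with a median of 0.40. The 3 genes past the filter only through the 1.0 mg/L library raise both the count above the control and the median. The 5 called include gnat1 and gngt1, which the rod list shares.

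Pineal transcription factors differed among themselves, and none was called. The gene otx2b had 934, 579, 660 and 525 counts (log2 ratio -0.68) and bsx 46, 55, 41 and 86 (0.96). Below the filter, crx, a photoreceptor homeobox gene, had 0, 0, 1 and 16 counts, and the pineal opsin gene parapinopsinb 5, 0, 2 and 28. In a bulk library, more cells of a type and more RNA per cell cannot be told apart, nor can the amount of pineal tissue retained in dissection.

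Retinoid genes split. The carrier gene rbp4l had 19, 10, 12 and 129 counts, 7.5-fold above the control (4.61 to 12.9). The retinoid isomerase gene rpe65a had 4, 2, 9 and 35 counts (9.66-fold, 3.45 to 37.4), the retinol uptake receptor gene stra6 6, 6, 19 and 32, the retinol acyltransferase gene lrata 7, 6, 5 and 32, and its relative lratb.2 4, 12, 9 and 17. Called lower were rbp3, a retinoid carrier between retinal cells, at 102, 17, 11 and 36 counts (2.57-fold, 1.74 to 3.86), the retinol dehydrogenase gene rdh10b at 123, 55, 58 and 49, and the retinoic acid binding gene crabp1b at 37, 16, 21 and 13. In these 3 the control was the highest library, and in rbp3 the 1.0 mg/L library lay between the control and the lower doses. Thus 5 were higher (14.7%) and 3 lower (8.82%) of 34 measured, beside 2.68% and 2.74% of all genes, with 17 on either side of the control and a median of 0.03, and 3 of the 5 passed the filter only through the 1.0 mg/L library.

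Of 27 non-visual opsin genes 9 were measured, the median was -0.07 and 1 was called, tmtops2a, a teleost opsin gene, at 37, 49, 49 and 11 counts (3.05-fold lower, 1.52 to 6.62). This call was lost under 3 of 13 settings. Lens and eye-field genes, listed as markers of retained eye tissue, gave no higher and 2 lower calls (11.8%, beside 2.74% of all genes) among 17 measured of 94, with a median of 0.13. The summed level of the 94 genes was 287, 294, 307 and 357 CPM, and so was highest at 1.0 mg/L. Retained eye tissue was not tested. Of the eye-field and pigment genes, rx2 and tyr were at 0 in all 4 libraries and rx1 at 0, 0, 1 and 2 counts. The 77 lens and eye genes below the filter summed to 151, 154, 116 and 189 counts. A channel gene in no light list, kcnh6b, had 3, 0, 3 and 47 counts (17.3-fold, 5.57 to 86.9).

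**Figure D2:**
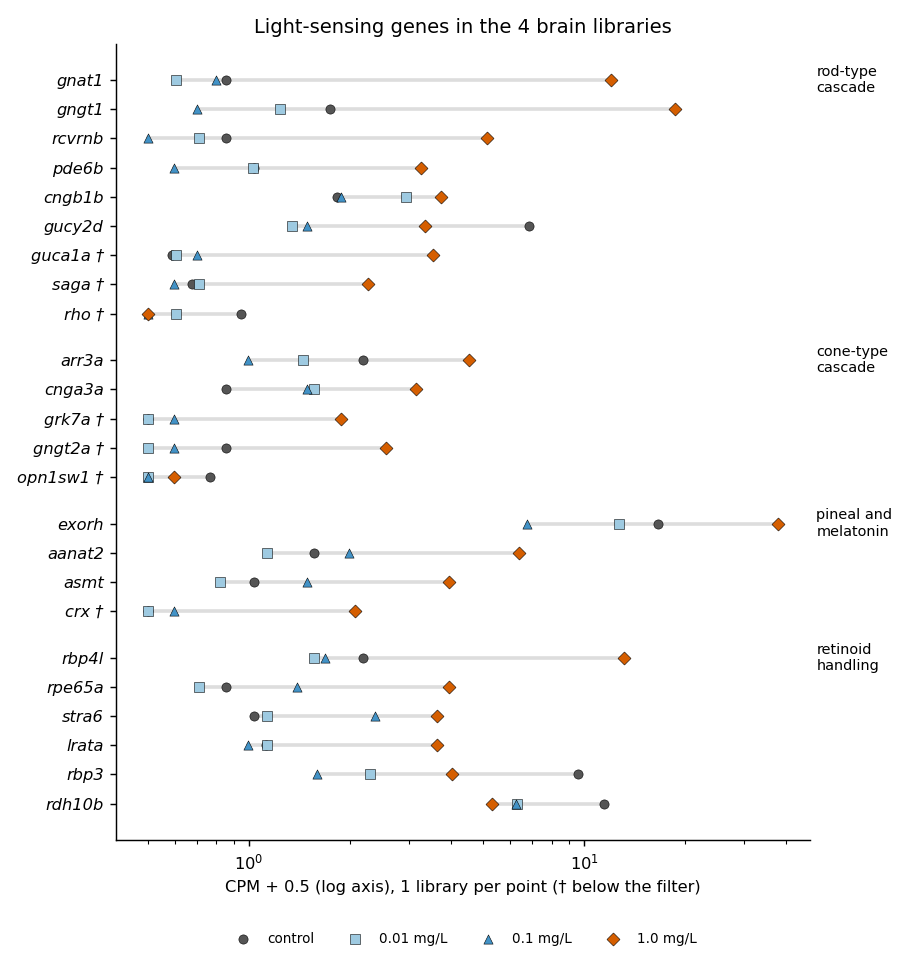
Level of light-sensing genes in each library as CPM + 0.5 on a log axis, with 1 point per library and a grey bar over the range of the 4; a dagger marks genes below the filter. The genes plotted were picked with their values in view, and the 9 measured rod-type genes that were not called are not shown. Among the genes plotted, the 1.0 mg/L point is the rightmost for most rod-type, cone-type and pineal ones. The genes rho and opn1sw1 are near the left edge in all libraries, and gucy2d, rbp3 and rdh10b are highest in the control.

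Among neuropeptides, the oxytocin gene was lower and a melanin-concentrating hormone gene higher. The gene oxt (ENSDARG00000042845, chromosome 5, 72087619 to 72093253), whose peptide comes from preoptic neurons, had 1568, 2017, 649 and 225 counts. This was 6.31-fold below the control (5.49 to 7.29), and the 0.01 mg/L library was above the control. Of the other preoptic peptides, the vasopressin gene avp was at 92, 86, 50 and 60 counts (log2 ratio -0.44) and the corticotropin-releasing hormone gene crhb at 507, 335, 357 and 238 (-0.93), and neither was called. The preoptic list held this 1 lower call and no higher one among 13 measured, with a median of -0.28.

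The gene pmchl (ENSDARG00000076978, chromosome 5, 54685175 to 54685710), which codes for a melanin-concentrating hormone of the hypothalamus, had 1131, 955, 1463 and 3171 counts, 3.1-fold above the control (2.89 to 3.32). Its paralog pmch had 91, 85, 167 and 139 counts (log2 ratio 0.72) and was not called. Feeding and arousal genes otherwise gave 2 lower calls among 33 measured (median -0.03), the peptide YY gene pyyb at 48, 3, 10 and 9 counts, past the filter only through the control, and the melanocortin receptor gene mc5ra at 93, 54, 38 and 39. The call of mc5ra was lost under 4 of 14 settings. The neuropeptide Y gene npy, at 1339, 592, 771 and 623 counts (-0.96), was not called. The relaxin-3 gene rln3a had 26, 23, 65 and 84 counts (3.57-fold higher, 2.27 to 5.77) and was the 1 call among 24 other peptide genes (median 0.01). Also called higher, though outside the naming rule, were prlh2, a prolactin-releasing hormone gene, at 19, 24, 22 and 63 counts, and the opioid receptor gene oprm1 at 27, 17, 14 and 75.

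Of 10 measured genes of the reproductive axis 3 were called lower (beside 2.74% of all genes) and none higher, with a median of -0.43, and 1 of the 3, npffl, had passed the filter only through the control. The kisspeptin gene kiss1 of the habenula had 100, 33, 36 and 40 counts (2.26-fold, 1.55 to 3.35), the gonadotropin-releasing hormone gene gnrh3 28, 18, 21 and 10, and the RFamide peptide gene npffl 28, 5, 4 and 6. The hypothalamic kisspeptin gene kiss2, at 81, 58, 62 and 88 counts, was not called. The calls of kiss1, gnrh3 and npffl were lost under 1, 3 and 1 of 13 settings, and the list median ranged from -0.57 to 0.25 over the settings. A gene with the symbol scg5 on chromosome 19, related to a chaperone of prohormone processing, had 9, 30, 15 and 145 counts (17.8-fold higher, 9.11 to 39.7). The scg5 gene of chromosome 20 had 5158, 4429, 5024 and 4647 counts and was not called.

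Several regional transcription factors were lower. The forebrain factor gene foxg1a (ENSDARG00000070769, chromosome 17, 29117027 to 29119362) had 115, 58, 40 and 20 counts, 5.21-fold below the control (3.22 to 8.84). The pallial gene tbr1b had 153, 98, 90 and 48 counts (2.89-fold, 2.08 to 4.08), and the subpallial gene lhx8a, past the filter only through the control, 33, 17, 4 and 6. For foxg1a and tbr1b the counts were lower at each higher dose. The paralog foxg1b was at 107, 123, 104 and 98 counts (log2 ratio 0.02), and the telencephalon list as a whole had a median of 0.02, with 14 of 27 measured genes above the control, 3 called lower (beside 2.74% of all genes) and no higher call. The summed level of the 33 genes of this list was 2553, 2721, 3123 and 3679 CPM, and so was highest at 1.0 mg/L.

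In the tectum and midbrain list 2 of 23 were lower (8.7%) and none higher (median -0.33), namely the dorsal midbrain gene pax7b at 90, 61, 36 and 27 counts and pou4f2, a projection neuron factor, at 1450, 830, 933 and 596 (2.2-fold, 2.0 to 2.43). Of 38 hypothalamic and habenular genes 1 was higher (2.63%) and 2 lower (5.26%), beside 2.68% and 2.74% of all genes. The higher was nkx2.4b, a hypothalamic factor, at 17, 19, 22 and 52 counts. The lower ones included nrp1a, a guidance receptor, at 329, 134, 166 and 121. Cerebellar genes had a median of 0.18, with 1 higher and 1 lower of 36 (2.78% each). The lower was cbln2a, a synapse organiser, at 190, 30, 30 and 48 counts, where all 3 doses were below the control. None of 12 measured hox genes of the hindbrain was called, with a median of 0.39.

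Lists of inhibitory and cholinergic genes held lower calls and no higher ones. The glutamate decarboxylase gene gad1a, which makes GABA, had 58, 28, 23 and 11 counts (4.78-fold lower, 2.48 to 10.1), and the GABA uptake carrier gene slc6a1a 501, 233, 193 and 179 (2.54-fold, 2.13 to 3.02). In both the control was highest and 1.0 mg/L lowest. The more abundant decarboxylase gene gad2 had 10246, 7685, 7220 and 6773 counts (log2 ratio -0.45) and was not called. GABA synthesis and transport genes had a median of -0.43 with 2 lower of 17 (11.8%, beside 2.74% of all genes), and GABA and glycine receptors -0.31 with 3 lower of 33 (9.09%) and 26 below the control. The receptor calls included gabrz at 96, 51, 38 and 24 counts (3.62-fold, 2.3 to 5.93) and gabrr2b at 28, 3, 23 and 6.

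Of 19 cholinergic genes 3 were lower (15.8%, beside 2.74% of all genes), with a median of -0.43. These were the nicotinic subunit genes chrnb3a at 242, 85, 103 and 89 counts (2.46-fold, 1.92 to 3.18) and chrna6 at 71, 25, 42 and 24, and the muscarinic receptor gene chrm3a at 29, 14, 6 and 10. In chrnb3a all 3 doses lay near each other and below the control. The calls of chrna6 and chrm3a were lost under 3 and 4 of 13 settings, and that of gabrr2b under 1.

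Glutamate receptors gave no call among 42, with a median of -0.20 and log2 ratios from -0.83 to 0.46. Of 16 glutamate transport genes 1 was called, the glial carrier gene slc1a3b, higher at 92, 71, 47 and 173 counts (2.08-fold, 1.6 to 2.7). Monoamine genes had 1 higher (2.63%) and 2 lower (5.26%) of 38 (median -0.11), beside 2.68% and 2.74% of all genes. The higher was the dopamine transporter gene slc6a3 at 28, 41, 34 and 57 counts. The lower were the adrenergic receptor gene adra2da at 89, 38, 35 and 30, and the histamine receptor gene hrh2a at 37, 17, 8 and 13. Of potassium channel genes 1 was higher (1.56%) and 4 lower (6.25%) of 64 (median -0.17). The higher one was kcnh6b, past the filter only through the 1.0 mg/L library, and the lower ones included kcnk10a at 48, 36, 28 and 13 counts. The calcium channel subunit gene cacna2d4b had 281, 390, 531 and 748 counts (2.94-fold higher, 2.56 to 3.38), with a higher count at each higher dose, and was the 1 call of 37 calcium channel genes. None of 9 sodium channel genes was called (median 0.28).

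Immediate early genes, which neurons switch on with activity, gave no call among 61, with a median of -0.21 and 43 below the control. The gene egr1 had 4083, 2217, 2228 and 2260 counts (log2 ratio -0.71). In the memory and neurotrophin list 1 of 70 was called, rasgrf2b, a Ras activator gene, lower at 56, 25, 13 and 19 counts (2.67-fold), with a list median of -0.18. The neurotrophin gene bdnf had 941, 720, 742 and 618 counts (-0.46) and was not called. Synaptic vesicle genes had a median of -0.02 and 1 lower of 55, doc2a. The call of rasgrf2b was lost under 3 of 13 settings and that of doc2a under 5 of 14. Abundant neuronal genes called lower included necab2, a calcium-binding protein gene, at 1538, 1136, 1007 and 601 counts (2.32-fold, 2.11 to 2.55), and the chloride extrusion gene slc12a5b, named outside the rule, at 320, 218, 124 and 121 (2.4-fold, 1.94 to 2.98).

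**Figure D3:**
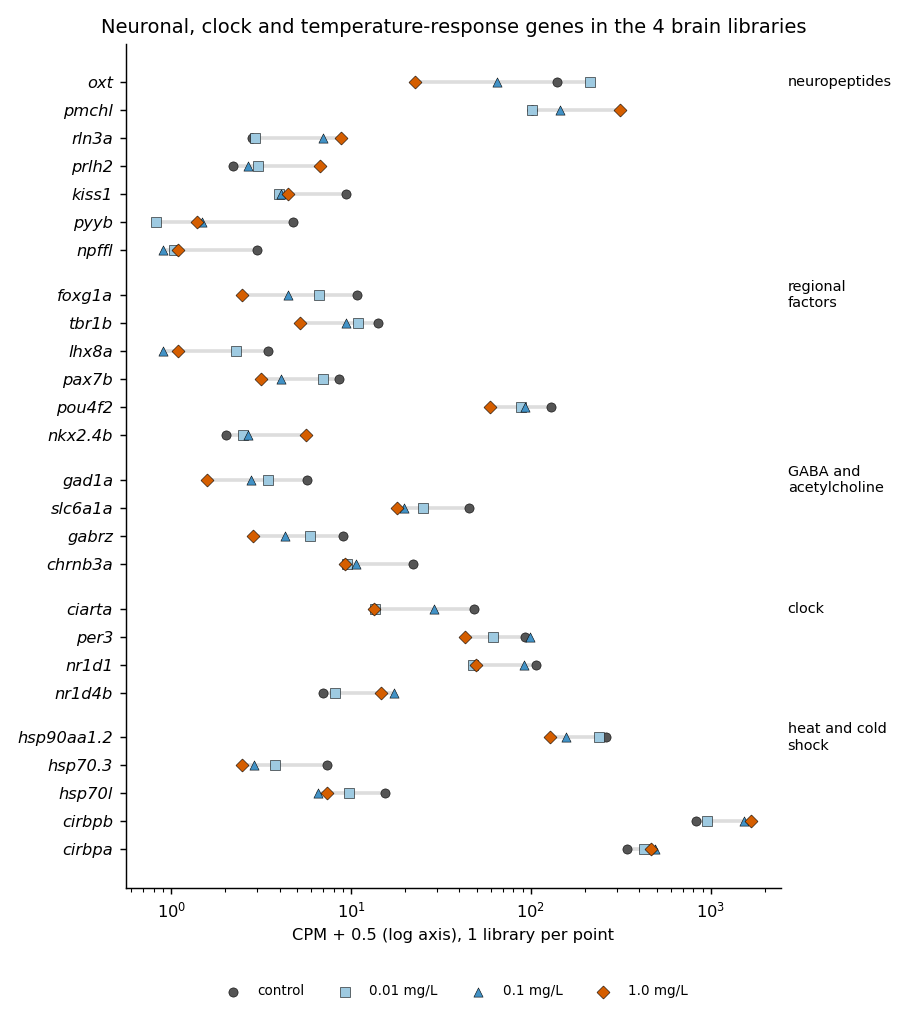
Level of neuropeptide, regional factor, transmission, clock and temperature-response genes in each library as CPM + 0.5 on a log axis, with 1 point per library and a grey bar over the range of the 4. The 1.0 mg/L point is leftmost for oxt, foxg1a, tbr1b, gad1a and hsp90aa1.2 and rightmost for pmchl, rln3a and cirbpb.

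Repressors of the circadian clock, which feed back on the activators, held 3 lower calls (14.3%, beside 2.74% of all genes) and 1 higher among 21, with 15 below the control and a median of -0.30. The gene ciarta had 537, 123, 287 and 131 counts (3.71-fold lower, 3.06 to 4.53), per3 1036, 576, 995 and 431 (2.18-fold, 1.94 to 2.44) and nr1d1 1194, 444, 921 and 501 (2.16-fold, 1.94 to 2.4). In all 3 the 0.1 mg/L library was nearer the control than the 0.01 and 1.0 mg/L libraries were. The higher call was nr1d4b at 73, 72, 169 and 145 counts, lost under 2 of 14 settings. The period gene per2 (log2 ratio -0.16) and the cryptochrome gene cry1a (0.00) were not called. Among activators 1 of 11 was lower, rorb at 27, 9, 6 and 7 counts, past the filter only through the control (median 0.05), and among output factors 1 of 16, dbpa at 230, 117, 112 and 79 counts (2.64-fold, 2.03 to 3.45; median -0.11). Dose and time of day cannot be told apart here, as the sources used give no sampling times.

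Some inducible heat shock genes were lower and a cold-inducible RNA-binding gene was higher. The inducible chaperone gene hsp90aa1.2 had 2920, 2265, 1568 and 1289 counts (2.05-fold lower, 1.92 to 2.19), and hsp70.3 had 77, 31, 24 and 20 (3.49-fold, 2.11 to 6.02). Also lower were hsp70l, hsp70.2, hspb15 and the collagen chaperone gene serpinh1b, so that 6 of 93 were lower (6.45%, beside 2.74% of all genes) and none higher, with 64 below the control and a median of -0.17. The calls of hsp90aa1.2, hsp70l and hspb15 were lost under 3 of 14 settings each, hsp70.2 under 4 of 13 and serpinh1b under 1. The constitutive chaperone genes hsp90ab1 (log2 ratio -0.24) and hspa8 (-0.23) were not called.

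The gene cirbpb (ENSDARG00000013351, chromosome 22, 18542010 to 18546649), which codes for a cold-inducible RNA-binding protein, had 9296, 9027, 15384 and 17085 counts, 2.03-fold above the control (1.98 to 2.08). At 852 CPM above the control, it was the most abundant of the genes called higher. The 0.01 mg/L library was nearer the control and the 0.1 mg/L library nearer 1.0 mg/L. Its paralog cirbpa had 3855, 4029, 4962 and 4715 counts (0.43) and was not called. The splicing-related gene arglu1b was higher at 1905, 2218, 3110 and 3517 counts (2.04-fold, 1.93 to 2.16), and the splicing factor gene srsf11 at 7469, 7622, 9645 and 10471 (0.63) was not called.

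Of 99 interferon-stimulated genes 63 were measured, of which 10 were called higher (15.9%, beside 2.68% of all genes), none lower and 53 not called. Of the 63, 51 lay above the control and 12 below, and the median was 0.38. None of the 10 had passed the filter through the 1.0 mg/L library alone. The antiviral GTPase gene mxc had 24, 59, 68 and 134 counts (6.16-fold, 3.97 to 9.96), parp12a 30, 42, 87 and 73 (2.69-fold) and the immunoproteasome gene psmb10 100, 116, 193 and 191 (log2 ratio 1.04). In mxc the 1.0 mg/L library was the highest, whereas other members peaked at 0.1 mg/L, such as ifi45 at 23, 62, 412 and 73 counts, the signalling gene stat1b at 17, 44, 277 and 44 and irf1b at 80, 89, 218 and 175. The ubiquitin-like gene isg15, at 30, 32, 316 and 38 counts, was high at 0.1 mg/L and not called at 1.0 mg/L. The calls of parp12a, stat1b and irf1b were lost under 1 of 14 settings each.

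Microglia and complement genes had 4 higher calls (10%, beside 2.68% of all genes) and none lower among 40 (median 0.27). The complement genes c3b.2 at 15, 20, 4 and 94 counts (6.92-fold, 3.99 to 12.9), c4b at 15, 35, 80 and 80 (5.89-fold, 3.37 to 11) and c3b.1 at 42, 38, 39 and 89 were among them, with the growth factor gene grn1 at 32, 37, 46 and 66. The macrophage markers mpeg1.1, at 80, 94, 114 and 102 counts, and csf1ra, at 18, 15, 15 and 11, were not called. Antigen-presentation genes had 1 call in each direction among 33 (median 0.21), mhc2b higher at 20, 70, 32 and 101 counts and mhc2dab lower at 580, 342, 688 and 224. Because RSEM divides reads between alike transcripts, values in this family are uncertain between its members. The lymphoid list had 1 call each way of 32 (median 0.30), the lower one past the filter only through the control, and the cathepsins 1 lower of 16 (median -0.03), ctss2.1 at 102, 12, 12 and 26 counts.

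Foreign compound metabolism was covered by lists of receptors, oxidising and conjugating enzymes and antioxidants. In the dioxin receptor and phase 1 list 3 of 33 were higher (9.09%, beside 2.68% of all genes) and none lower (median 0.08), namely ahrra, the receptor's repressor, at 8, 20, 43 and 22 counts (3.04-fold, 1.3 to 7.89), cyp1d1 at 31, 41, 85 and 62, and cyp2p7, past the filter only through the 1.0 mg/L library, at 10, 8, 12 and 24. The classic target cyp1a, at 189, 133, 400 and 249 counts (log2 ratio 0.53), was not called. The calls of ahrra, cyp1d1 and cyp2p7 were lost under 1, 4 and 3 settings. Conjugation enzymes had 1 higher (2.27%) and 3 lower (6.82%, beside 2.74% of all genes) of 44 (median 0.08), 1 of the 3 past the filter only through the control, and antioxidant genes 1 higher of 42 (median 0.03), the peroxiredoxin gene prdx1 at 375, 383, 252 and 704 counts (2.07-fold, 1.83 to 2.36).

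Hormone axis lists held 1 or 2 calls each. Sex steroid genes had 2 higher of 23 (8.7%, beside 2.68% of all genes; median -0.11), the yolk precursor gene vtg3 at 31, 53, 73 and 76 counts and the orphan receptor gene esrrb at 7, 8, 12 and 18, the latter past the filter only through the 1.0 mg/L library; these calls were lost under 3 and 4 settings. Brain aromatase, cyp19a1b, an oestrogen-responsive gene of radial glia, had 6441, 6221, 4778 and 6052 counts (log2 ratio 0.05) and was not called. The stress axis list had 1 higher of 22 (4.55%; median 0.04), the cortisol-inactivating enzyme gene hsd11b2 at 76, 149, 119 and 150 counts. The thyroid list had 1 lower of 18 (5.56%, beside 2.74% of all genes; median 0.17), the thyroid hormone receptor gene thrab at 19, 11, 15 and 1 counts (17.2-fold, 2.74 to 715), which passed the filter only through the control.

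**Figure D4:**
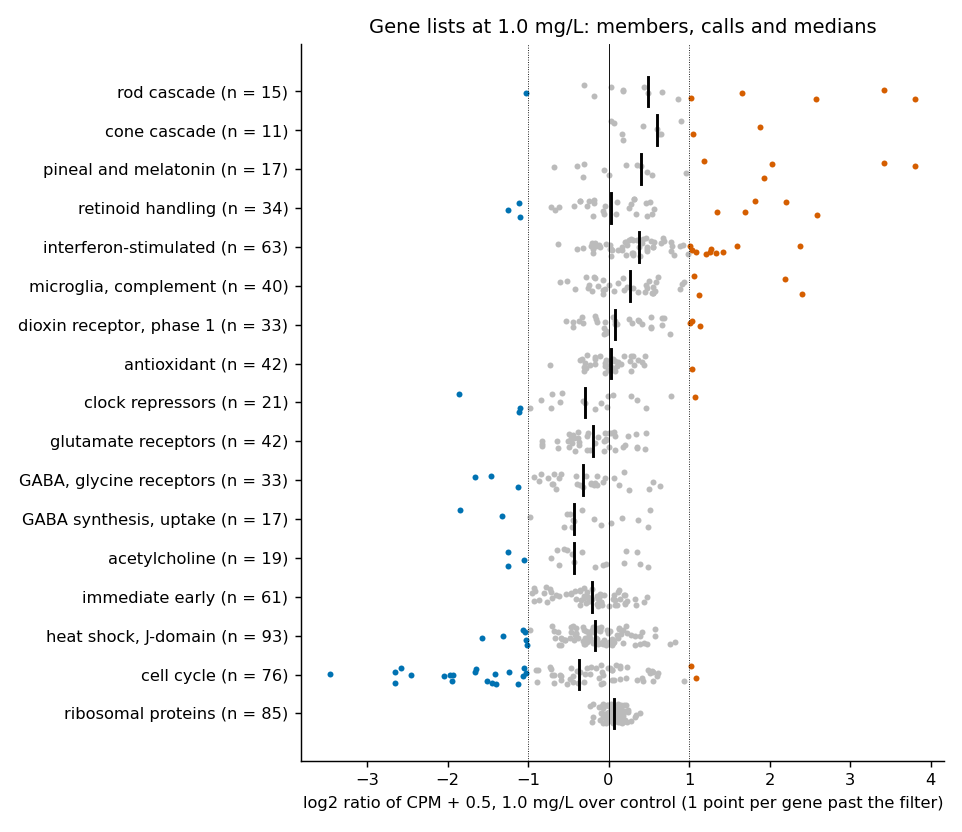
Log2 ratio of CPM + 0.5 at 1.0 mg/L over control for each measured gene of 17 lists, with 1 point per gene, orange for called higher and blue for called lower; black bars are list medians and dotted lines mark a ratio of 1 in size. Rod, cone, pineal and interferon medians lie between 0.38 and 0.60, GABA and acetylcholine medians between -0.43 and -0.31, and the ribosomal proteins lie close to 0. The rod, cone and pineal medians include genes that passed the filter only through the 1.0 mg/L library, which raises them.

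Over all genes 2.68% were called higher and 2.74% lower. Radial glia had 1 higher of 48 (2.08%, median -0.10) and oligodendrocytes 2 higher of 36 (5.56%, median -0.01). Of the oligodendrocyte calls, gal3st1b, a myelin lipid enzyme gene, had 0, 13, 5 and 23 counts. It was at least 8.46-fold above the control and past the filter only through the 1.0 mg/L library. Endothelial and barrier genes had 2 higher (4%) and 1 lower (2%) of 50 (median -0.02). The higher were the tight junction gene cldn5b at 5, 20, 21 and 36 counts (7.95-fold, 3.11 to 26) and the fenestration gene plvapb at 18, 30, 36 and 49. The lower was the glucose carrier gene slc2a1a at 83, 56, 39 and 29. Erythroid genes had 1 higher of 28 (3.57%, median -0.29). In the collagen hydroxylase list 1 was higher (5.26%) and 2 lower (10.5%) of 19. The lower ones were p3h2, past the filter only through the control, and serpinh1b. The latter is the collagen chaperone gene of the heat shock list, not a hydroxylase gene. The higher one, p3h3 (ENSDARG00000057879), had 22, 387, 399 and 217 counts (10.9-fold, 7.01 to 17.7), high in all 3 doses. The collagen list had 4 higher (6.25%) and 3 lower (4.69%) of 64 (median -0.15), and 1 of the higher genes, hspg2, is not a collagen gene.

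Glycolysis genes had 1 higher (1.79%) and 3 lower (5.36%) of 56 (median -0.06), beside 2.68% and 2.74% of all genes. The lower included gapdh at 337, 126, 114 and 101 counts (3.02-fold, 2.41 to 3.81), while its brain paralog gapdhs, at 12466, 11177, 11560 and 12033 counts (log2 ratio 0.09), was not called. Motile cilia genes had 3 calls (4.17%) in each direction of 72 (median 0.20). Of these, the dynein gene dnah9l, called lower at 68, 15, 15 and 16 counts, stood higher in the authors' TPM. No gene was called among 85 ribosomal proteins (median 0.07), 107 nuclear oxidative phosphorylation genes (-0.01), 13 mitochondrially encoded genes (-0.08), 44 cholesterol genes (-0.11) and 40 muscle genes (-0.21).

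Of 76 measured cell cycle genes, 20 were called lower (26.3%, beside 2.74% of all genes) and 2 higher (2.63%, beside 2.68%), with 52 below the control and a median of -0.36. Of the 20, 12 had passed the filter only through the control, which is the library that carried the egg coat and oocyte transcripts. Without members of the oocyte list, 18 of 74 were lower (median -0.33), and 11 of these 18 had passed the filter only through the control. As that list holds few cell cycle genes, leaving them out cannot separate ovary-type transcripts from the rest. The cyclin gene ccnb1 had 175, 10, 22 and 21 counts, the survivin gene birc5b 56, 2, 0 and 0, the mitotic kinase gene plk1 61, 9, 15 and 14, and the nucleotide reductase gene rrm2 (ENSDARG00000078069) 95, 67, 54 and 27. In all 4 genes each dose was below the control. However, birc5b had passed the filter only through the control, which favours such an order, and plk1 and rrm2 were picked with their values in view. A second gene with the symbol rrm2 (ENSDARG00000020711) had 250, 78, 115 and 161 counts and was not called. The replication helicase gene mcm7 went the other way, at 420, 391, 497 and 780 counts (2.05-fold, lost under 1 of 14 settings). The part of the ovary-type transcripts in these values was not tested. With only genes of at least 5 CPM, the list median was 0.01.

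Calls were unevenly placed on the genome. On chromosome 4, 52 of 741 genes (7.02%) were called higher beside 2.68% over all genes, and 23 (3.1%) lower. The higher calls there were 4 of 367 genes (1.09%) in the first 20 Mb and 5 of 133 (3.76%) in the next. They were 12 of 57 (21.1%) from 40 to 60 Mb and 31 of 184 (16.8%) from 60 to 80 Mb. These windows were chosen after the values were seen, and their shares were not matched for expression level. Some of the higher genes had passed the filter only through the 1.0 mg/L library, which raises these shares. One was BX465836.1, at 3, 4, 13 and 23 counts. How many did so on this chromosome was not counted. Over all genes, 7.27% were called higher at a mean of 1 to 2 CPM and 4.79% at 2 to 5 CPM. The long arm of this chromosome is known for repeats and for clustered zinc finger and immune-type genes. An example is the clone-named gene si:dkey-159n16.2, at 64, 461, 311 and 450 counts (7.76-fold, 5.96 to 10.3), with all 3 doses above the control. Neighbouring genes also differed in direction, as 2 genes share the symbol si:dkey-240n22.6. One (ENSDARG00000089296, 76926059 to 76964360) was higher, at 156, 672, 490 and 674 counts, and the other (ENSDARG00000106998, 76902513 to 76914227) was lower, at 61, 20, 27 and 4 counts. RSEM divides reads between alike transcripts. How alike these 2 genes are was not tested, and their values may be uncertain between them. Clone-named genes held 193 higher (7.03%) and 160 lower calls (5.83%) of 2746 over the whole genome. Over the whole genome too, 5 of 17 genes of the finTRIM family were higher (29.4%, beside 2.68% of all genes) and none lower. How many of these 5 passed the filter only through the 1.0 mg/L library was not counted. Of genes with a znf symbol 5 of 188 were higher (2.66%) and 8 lower (4.26%).

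**Figure D5:**
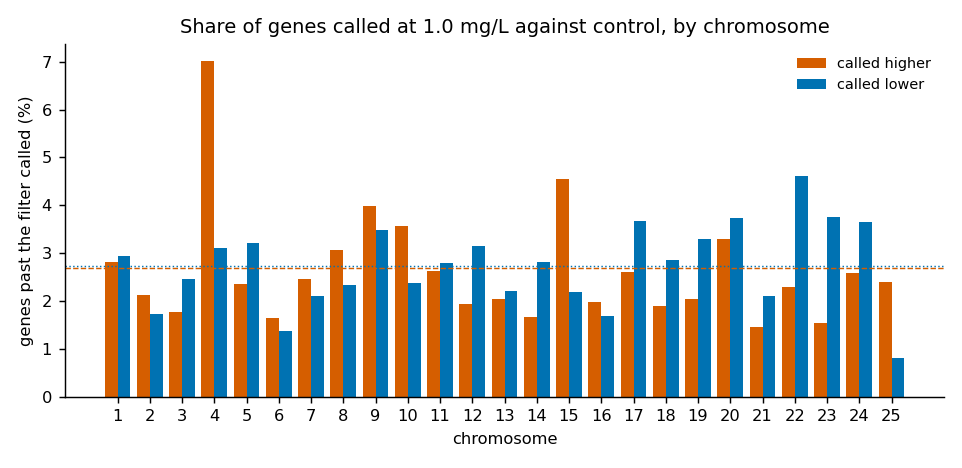
Share of the genes past the filter on each chromosome that were called higher (orange) or lower (blue) at 1.0 mg/L, in percent; the dashed and dotted lines are the shares over all genes, 2.68% and 2.74%. Among the 25 chromosomes plotted, 4 has the tallest higher bar, 7.02%, and 22 the tallest lower bar; the 156 genes of unplaced scaffolds, not plotted, had 7.69% higher and 5.13% lower.

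Some genes were present in one library and at 0 in the other. In 74 genes the 1.0 mg/L library had 0 counts and the control at least 50. Of these, 66 had at most 3 counts at both other doses, and so had passed the filter only through the control. Among the 74, 57 were clone-named, beside 2746 of all 16522 genes, and 18 lay on chromosome 22, beside 565. The egg coat, oocyte and gonad lists held 11 of the 74, beside 67 of all genes tested. List membership may undercount ovary-type transcripts, as genes outside these lists were not sorted by origin. In the opposite direction there was 1 gene, si:ch211-57b15.1 (chromosome 21, 29179887 to 29186128), with 0, 0, 0 and 192 counts, at least 70.7-fold above the control. It had passed the filter only through the 1.0 mg/L library. The class I gene mhc1uba had 478, 1, 0 and 508 counts and so was high in the control and at 1.0 mg/L only. The floor for a library at 0 was 3 counts, equal to 0.267 CPM for the control and 0.295 CPM for 1.0 mg/L.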

How the data were processed

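Per the labels' protocols, stranded poly(A) mRNA libraries were read as 151 bp paired ends, and per the submitters' processing notes cutadapt 2.8, STAR 2.7.1a, RSEM 1.3.1 and the build GRCz11 were used. The authors deposited an estimated count (expected count), an RPKM and a TPM per gene and library, and for each dose a p-value, a q-value and a log2 fold change, per the file headers. All deposited counts are whole, yet 141 counts of 0 have an RPKM above 0, and they were treated as RSEM's expected counts made whole. The test behind the authors' p-values is not given in the sources used here. All per-sample columns were mapped.

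Counts were scaled with TMM factors over all genes (edgeR 4.0.16 under R 4.3.3), with values of 1.01, 0.931, 1.02 and 1.04 from control to highest dose. A mean of 1 CPM or more, by library totals, was required, and ratios used a pseudocount of 0.5 CPM. A gene was called at a log2 ratio of at least 1 in size with an exact 95% Clopper-Pearson interval, conditional on the sum of both counts, that excluded 1. Intervals and the floor of 3 counts cover counting error only. The calling step was tried on simulated counts for the genes past the filter, some of them changed by known folds. These counts held counting error only, with no spread between fish, so error rates in the real libraries were not tested. Other software was matplotlib 3.10.9, scipy 1.17.1, pandas 2.3.3 and numpy 2.4.6 in Python 3.11.15, with DESeq2 1.42.0 for size factors only.

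Named genes were the 30 highest and 30 lowest called genes averaging 5 CPM or more and an informative symbol, the 10 highest and 10 lowest by CPM difference, and up to 6 called members with the largest ratio of each of 64 lists, with defining markers and the genes at 0 in 1 library. Members and lists were chosen with earlier results of these data known. The gene families, the 20 Mb windows, list members that were not called, genes below the filter and the genes said to be outside the rule were picked with their values in view, and a few list entries were corrected then. The called genes tdrd6, rdh10b, crabp1b, psmb10, plk1 and rrm2 and the clone-named examples were also outside the rule. They are not among the 196 named genes. Lists are described by counts and medians, with no set test. Alternatives were other scalings, filters and pseudocounts, thinning, the authors' TPM and RPKM (by size alone, with no interval), and leaving out the ovary-type lists. Promoter motifs were not analysed here, and values of 1 called gene are not reported here.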

Additional observations from a re-analysis of the deposited data

Results flagged for a closer look

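In 6 of the 196 named genes the difference from the control at 1.0 mg/L had the opposite sign to that at 0.1 mg/L, with both past the size rule. The contrast between doses was not tested, both comparisons share the control library, and each group is 1 library. The pineal opsin gene exorh had log2 ratios of 1.19 at 1.0 mg/L and -1.3 at 0.1 mg/L, and the transducin gene gngt1 had 3.42 and -1.32. The cone arrestin gene arr3a had 1.05 and -1.14, and the complement gene c3b.2 had 2.41 and -1.03. The others ran the opposite way, bin2a at -1.63 and 2.18, with 56, 5, 245 and 13 counts in the order control, 0.01, 0.1 and 1.0 mg/L, and the potassium channel gene kcnk5a at -1.05 and 2.75, with 6, 1, 65 and 0 counts. However, kcnk5a had passed the filter only through the 0.1 mg/L library, and gngt1 only through the 1.0 mg/L library. For kcnk5a at 1.0 mg/L the fold interval began at 1.07, and the call was lost under 3 of 12 settings.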

How the results depend on the processing

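The counts of 443 higher and 452 lower genes became 680 and 740 of 23855 genes with no filter beyond 1 count, 138 and 121 of 11258 with a mean of at least 5 CPM, and 137 and 223 with a pseudocount of 2 CPM. These settings change how many low genes can pass by construction. Under 11 other settings both counts stayed within 1.5 times, from 360 to 583 higher and from 354 to 563 lower. Scaling by library totals gave 493 and 415, so 54.3% of calls were higher beside 49.5%, and all genes shifted by a median of 0.04. With the authors' TPM they were 441 and 354 (55.5% higher). TMM from the genes past the filter and a filter on the 2 compared libraries were added after seeing the data. Of 196 named genes 105 kept their call under every setting that tested them, 90 lost it under at least 1, and 1 changed sign, dnah9l, at -1.66 as reported, 0.80 in the authors' TPM and 0.73 in their RPKM; the cause was not tested. No paired analysis was possible because each group holds 1 library. Depth limits genes near 1 CPM, where about 10 counts stand behind a value.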
